A study of Mus musculus with 4 samples.

Results

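The 9 genes described here, Zfp42, Tbx3, Klf2, Klf5, Tcfcp2l1, Nr5a2, Prdm14, Tcl1 and Sall4, were chosen by name as genes of the naive pluripotency network, with no threshold on a value in these data. Earlier results of these data were known when they were chosen, so the choice was not blind to them. They are 9 of 21418 protein-coding genes annotated on the mouse autosomes (GENCODE annotation of the mm9 build). RAD21 sites were assigned to a gene when they lay within 100 kb of its body. This gave 34 of the 15311 RAD21 sites deposited for embryonic stem cells (ESCs) and 7 of the 11022 deposited for embryoid bodies (EBs), and 15085 and 10781 sites of these lists lay on autosomes.

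RAD21 was mapped by chromatin immunoprecipitation and sequencing (ChIP-seq) in R1/E mouse ESCs at day 0 and in EBs, aggregates of differentiating cells, made from the same line and collected at day 12. All cells, also those of the control libraries, had a transgene for RAD21 fused to GFP, carried by a bacterial artificial chromosome, and an antibody to GFP was used to pull down the fusion protein. ESCs were grown with LIF and EBs by hanging drops. Each cell type had 1 RAD21 library and 1 control library, which makes 4 in all. The controls are labelled as goat IgG although the sample descriptions also name input DNA. Every difference given here is thus between single libraries, and no test between conditions could be made. Intervals of read ratios cover counting error only. Those of shares and medians treat sites or genes as independent, although sites of 1 gene lie near each other. No interval covers variation between libraries. On autosomes there were 13714772 reads for ESC RAD21, 7740389 for EB RAD21, 12602155 for ESC IgG and 6929293 for EB IgG, and counts scaled to 1000000 of them are given as RPM. EBs contain several cell types, and fewer cells with RAD21 at a site cannot be told apart from less RAD21 per cell. No expression was measured in these libraries, so the state of the cells could not be checked against marker transcripts.

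RAD21 belongs to cohesin, a ring complex that holds sister chromatids together and that is found at many sites bound by the insulator protein CTCF, where it takes part in the folding of chromatin into loops. Naive pluripotency is the state of the cells of the early inner cell mass, kept in culture by LIF signalling through STAT3 and by a network of transcription factors. Zfp42 (Rex1) encodes a zinc-finger protein widely used as a marker of that state, and Klf2 and Klf5 encode Krüppel-like factors with partly overlapping roles. Tcfcp2l1 is a target of LIF signalling, Tbx3 encodes a T-box factor, and Nr5a2 encodes an orphan nuclear receptor that binds regulatory sequence of Pou5f1. Prdm14 encodes a PR-domain protein that restrains FGF signalling and DNA methylation, and Sall4 a spalt-type zinc-finger protein. Tcl1 differs from the rest in that its product is a cofactor of the AKT kinase and not a DNA-binding factor.

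Around these genes ESC RAD21 sites were rarely matched by an EB site. Of the 34 ESC sites, 28 (82.4%, exact interval 65.5 to 93.2) had no overlapping EB site, against 51.4% of all autosomal ESC sites. Sites had fewer EB than ESC RAD21 reads in RPM in 32 of 34 cases, compared with 60.2% of all autosomal ESC sites. The 6 shared sites belonged to 3 genes, Tcfcp2l1, Klf2 and Tbx3, with 2 each. All ESC sites of Zfp42, Klf5, Nr5a2, Prdm14, Tcl1 and Sall4 were listed in ESCs only. Of the 7 EB sites, 1 (14.3%) lacked an ESC partner, against 31.7% of all autosomal EB sites.

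**Figure D1:**
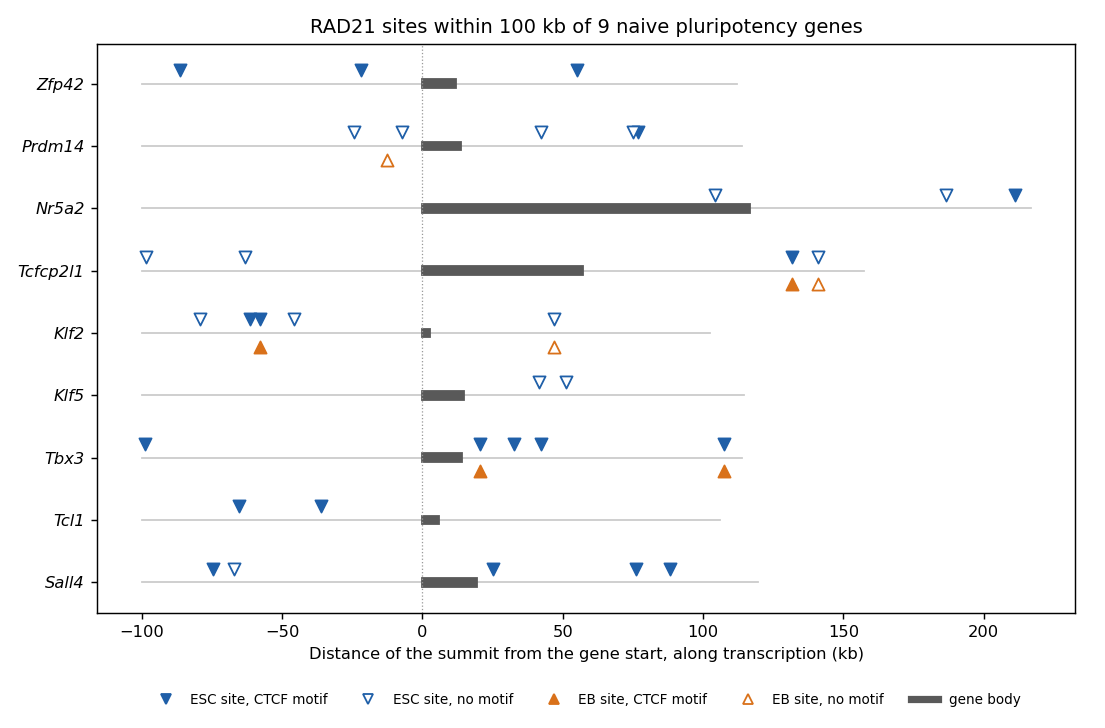
Position of each RAD21 summit relative to the start of its gene in kb, with negative values upstream; downward triangles are ESC sites, upward triangles EB sites, filled where a CTCF motif lay within 150 bp of the summit, and grey bars are gene bodies. The 34 ESC sites flank the genes on both sides, 1 lies inside a gene body, none lies at a start, and the 7 EB sites are at 4 genes.

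Each gene had at least 2 ESC sites, and the number ranged from 2 at Klf5 and Tcl1 to 5 at Prdm14, Tbx3, Klf2 and Sall4. An ESC site within 100 kb was common among all genes, at 82.3%, so the presence of one at all 9 is close to the background. An EB site was present at 4 of the 9 genes, against 73.6% of all genes. Per length, the members had a median of 1.56 ESC sites per 100 kb of window, compared with 0.93 over all protein-coding genes, and a median of 0 EB sites, compared with 0.49.

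The sites lay away from the genes they were assigned to. Of the 34 ESC sites, 15 were upstream, 18 downstream and 1 inside the body, and for only 5 was the start of the member the nearest annotated start. By annotation 24 were intergenic (70.6%, against 53.4% of all autosomal ESC sites), 6 intronic (17.6%, against 36.8%) and 4 within 1 kb of a start (11.8%, against 6.68%), in each case a start of another gene. No RAD21 site of either list covered an annotated start of a member. The closest was 7267 bp upstream of Prdm14, and the closest site of Nr5a2, an intronic one, lay 104142 bp downstream of its start.

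Sequences are shown for some shared sites and for some ESC-only sites whose ESC to EB ratio exceeded 1 beyond counting error, so that their CTCF motifs can be set side by side. Each line gives 60 bases of the mm9 genome read along the motif, with the 20 bases that matched the CTCF weight matrix in capitals. The first 3 are shared sites, the others are ESC-only.

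Tcfcp2l1, 131755 bp downstream of the start, chr1:120656316-120656375, minus strand: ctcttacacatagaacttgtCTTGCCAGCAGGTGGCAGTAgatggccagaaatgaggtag
Tbx3, 20596 bp downstream, chr5:120141309-120141368, minus strand: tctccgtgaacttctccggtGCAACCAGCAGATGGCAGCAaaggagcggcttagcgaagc
Klf2, 57715 bp upstream, chr8:74785139-74785198, plus strand: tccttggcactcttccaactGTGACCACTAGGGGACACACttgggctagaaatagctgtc
Zfp42, 55129 bp downstream, chr8:44337170-44337229, plus strand: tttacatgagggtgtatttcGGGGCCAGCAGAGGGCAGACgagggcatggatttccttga
Zfp42, 86231 bp upstream, chr8:44478558-44478617, plus strand: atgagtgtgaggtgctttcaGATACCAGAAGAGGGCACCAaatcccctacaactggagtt
Tbx3, 98827 bp upstream, chr5:120021836-120021895, minus strand: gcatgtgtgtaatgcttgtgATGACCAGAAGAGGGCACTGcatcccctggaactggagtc
Tcl1, 65236 bp upstream, chr12:106526092-106526151, plus strand: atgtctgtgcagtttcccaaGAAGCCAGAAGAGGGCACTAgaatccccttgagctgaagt
Nr5a2, 211157 bp downstream, chr1:138645909-138645968, minus strand: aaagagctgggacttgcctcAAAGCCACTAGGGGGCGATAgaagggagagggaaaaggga
Prdm14, 76775 bp downstream, chr1:13040377-13040436, plus strand: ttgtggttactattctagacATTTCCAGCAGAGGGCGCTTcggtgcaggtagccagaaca

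A CTCF motif was found at 19 of 34 ESC sites (55.9%, interval 37.9 to 72.8) and at 4 of 7 EB sites, close to the 52.3% of all autosomal ESC and 50.3% of all autosomal EB sites. Among 20071 background windows the share was 0.284%. At a looser threshold, passed by 1e-04 of background positions, 26 of 34 ESC sites had a match (76.5%), against 78.6% of all autosomal ESC sites. Member sites were too few to compare overlap with the EB list between sites with and without a motif at the first threshold. Of the 19 ESC sites with a motif 15 were ESC-only (78.9%, 54.4 to 93.9), and of the 15 without a motif 13 were (86.7%, 59.5 to 98.3). Over all autosomal ESC sites the shares were 46% with and 57.4% without a motif.

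Several of the motif matches carried the same stretch of 13 bases, CCAGAAGAGGGCA, visible above at Zfp42, Tbx3 and Tcl1. This stretch, which more motif matches of the member ESC sites shared than any other run of 13 bases (5 of 19), was picked out after sequences and reads had been seen, so its counts are a description. On either strand within 150 bp of the summit it occurred at 8 of the 34 ESC sites, at Zfp42, Tbx3 (2), Tcfcp2l1 (2), Tcl1 and Sall4 (2), and in 5 of these the window also held a CTCF match at the threshold used. All 8 were ESC-only and all had at least 2-fold fewer EB reads, with log2 ratios between -3.93 and -1.10. No repeat annotation was used here, and whether the stretch belongs to a repeat family was not tested. It was also frequent elsewhere. The stretch was present at 1066 autosomal ESC sites (7.07%), of which 90.3% were ESC-only, and at 136 autosomal EB sites (1.26%). Without such sites 20 of 26 ESC sites of the members were ESC-only (76.9%, 56.4 to 91.0), against 48.5% of all other autosomal ESC sites.

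Short consensus patterns of factors that the members or their partners encode were rare at these sites. Within 150 bp of the summit and on both strands, ATGCAAAT (the octamer of POU factors) occurred at 1 of 34 ESC sites, that of Klf5 41489 bp downstream of its start, compared with 1.80% of all ESC sites and 2.60% of background windows. The TCFCP2L1 pattern, CCAG repeated after a gap of 6 bases, occurred at 2, one at Nr5a2 and one at Sall4, against 4.17% and 2.26%. At Sall4 it overlapped the CTCF match. None of the 34 held TCAAGGTCA (bound by ESRRB and NR5A2, 0.742% of all ESC sites), CCACACCC (Krüppel-like factors, 2.12%), TTCCNGGAA (STAT3, 1.08%), AGGTGTGA (T-box factors, 1.15%) or AAGATGGC (ZFP42 and YY1, 3.5%). These shares would give about 1 match or fewer each among so few windows. The 7 EB sites held none of the patterns. The octamer of the Klf5 site is shown in capitals with its flanks.

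Klf5, chr14:99739467-99739498, minus strand: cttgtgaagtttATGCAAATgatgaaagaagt

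Reads were then counted within 250 bp of each ESC summit. Over the 34 sites there were 954 ESC and 203 EB RAD21 reads, which is 2.65 times more RPM in ESCs (2.28 to 3.10). The IgG libraries held 100 and 42 reads there, an EB to ESC ratio of 0.764 (0.520 to 1.11). For RAD21 the median log2 EB to ESC ratio was -1.45 (-1.98 to -1.20), with a range from -3.93 to 0.47, against -0.27 over all autosomal ESC sites. The sites had been listed for high ESC signal, which lowers this ratio for every ESC list, and the value over all ESC sites carries the same choice. At least 2-fold fewer EB reads were found at 26 of 34 sites (76.5%, 58.8 to 89.3), against 28.7% of all autosomal ESC sites. The exact interval of the ratio lay below 1 at 23 sites (67.6%, against 22.6% of all autosomal ESC sites) and above 1 at 0 of 34, against 10.1%.

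The member sites were not weaker than others in ESCs. Their median deposited score (-10 times log10 of the p-value of the peak) was 98.8, against 94.5 for all, and their median ESC RAD21 count 23.5 reads, against 23. The share of ESC-only sites falls with the strength of a site over all sites, and it was also compared above common lower limits, with no matching of strength above them. With a score of at least 100, 13 of 17 member sites were ESC-only (76.5%, 50.1 to 93.2), against 33.1% of all such autosomal sites. With at least 30 ESC RAD21 reads, a limit set after the data had been seen, 8 of 12 were (66.7%, 34.9 to 90.1), against 23.5%.

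**Figure D2:**
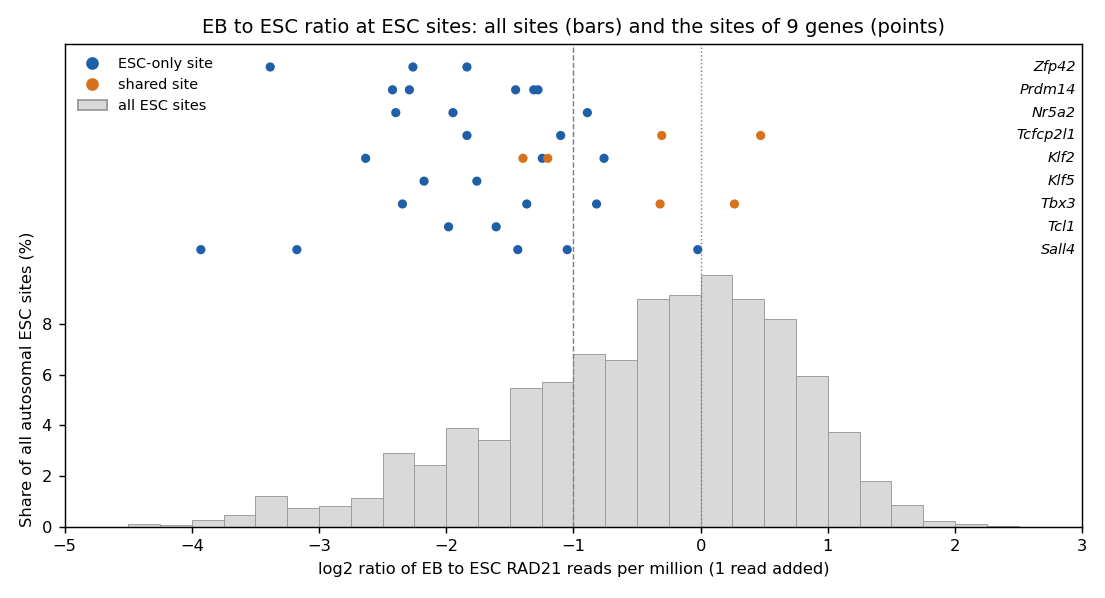
Distribution of the log2 EB to ESC ratio of RAD21 reads in RPM, with 1 read added, over all 15085 autosomal ESC sites (bars, percent of sites per bin of 0.25) and at the 34 sites of the 9 genes (points above, 1 row per gene, blue ESC-only and orange shared). The dashed line marks a 2-fold decrease and the dotted line equal reads; 26 points lie at or left of the dashed line, where 28.7% of all sites lie.

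The depth of the EB libraries limits what can be said of single sites. At the 28 ESC-only sites 107 EB RAD21 reads were counted against 33 EB IgG reads, which is 2.90 times more in RPM (1.95 to 4.43), so that as a group they were not at the IgG level in EBs. All autosomal ESC-only sites gave 3.04 (2.98 to 3.10). More EB RAD21 reads than in 95% of background tiles of 500 bp, that is more than 4 reads, were seen at 11 of 28 (39.3%, 21.5 to 59.4), against 53.8% of all ESC-only sites. At 2 sites 0 EB RAD21 reads were found and at 7 at most 1, which allows up to 3 reads in the first case.

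**Figure D3:**
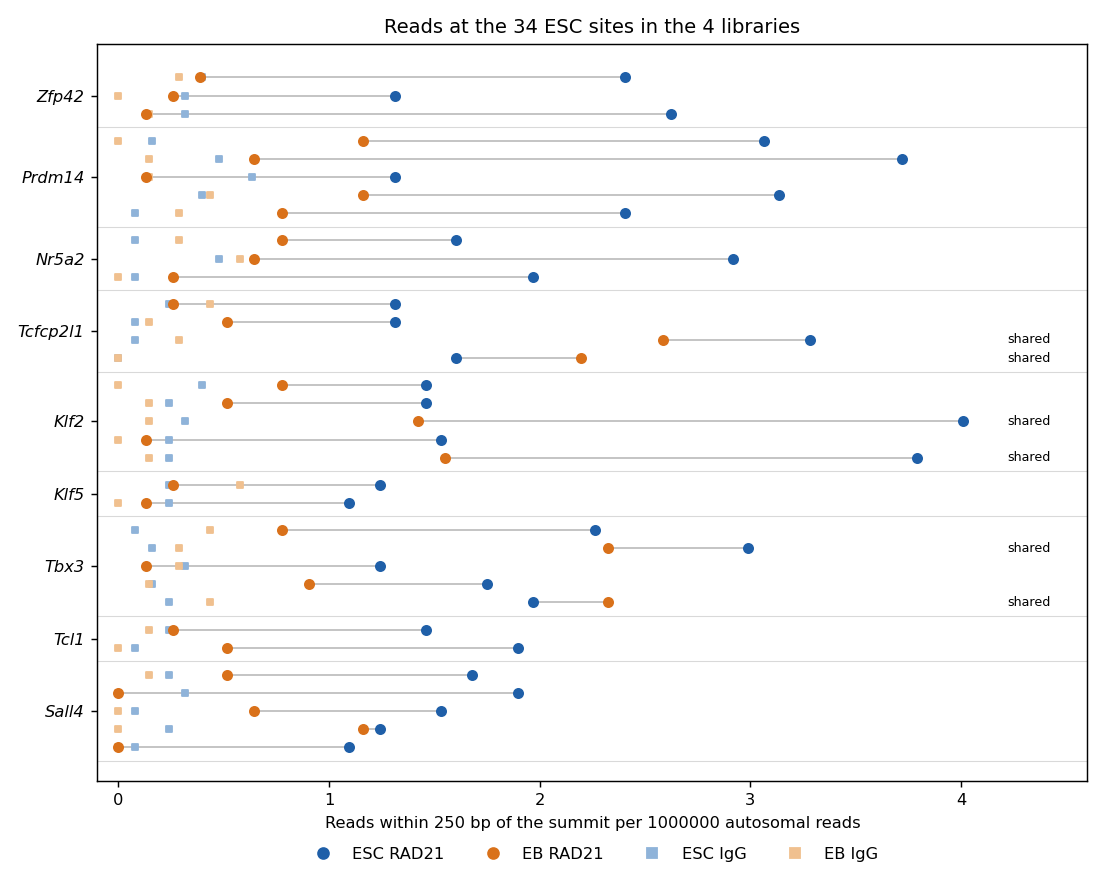
Reads per 1000000 autosomal reads (RPM) within 250 bp of each of the 34 ESC summits, 1 line per site, ordered within a gene by position from upstream to downstream; circles are RAD21 and squares IgG, blue shades ESCs and orange shades EBs, and grey lines join the RAD21 values. In 32 of 34 lines the EB circle lies left of the ESC circle, and the exceptions are 1 shared site each at Tcfcp2l1 and Tbx3.

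Zfp42 (chr8:44380422-44392363, minus strand) had the lowest EB to ESC ratio of the 9. Its 3 ESC sites were all ESC-only and all had a CTCF motif. The site 55129 bp downstream of the start held 36 ESC and 1 EB RAD21 reads, with 4 ESC and 1 EB IgG reads. The site 86231 bp upstream held 33 and 3 RAD21 reads, with 5 and 2 IgG reads. At the third, 21852 bp upstream, 18 and 2 RAD21 reads stood against 4 and 0 IgG reads. The ESC counts of these sites lie far above all other counts, while the EB RAD21 counts lie at the EB IgG counts within 2 reads. Summed over the sites, the EB to ESC ratio was 0.122 (0.0436 to 0.277).

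Prdm14 (chr1:13103538-13117244, minus strand) had the most reads at its ESC sites, 187 in the ESC and 30 in the EB RAD21 library, a ratio of 0.284 (0.187 to 0.42). Its site nearest to the start, 7267 bp upstream (chr1:13123915-13125015, score 244.9), held 51 ESC and 5 EB RAD21 reads, with 6 ESC and 1 EB IgG reads, 5.76 times more in ESCs (2.31 to 18.5). No CTCF motif was found there at the first threshold, but a match passed the looser one. A site 24211 bp upstream, 356 bp from the start of Ncoa2, a nuclear receptor coactivator gene, held 42 and 9 RAD21 reads with 2 and 0 IgG reads. Neither had an EB partner, although 5 and 9 EB RAD21 reads exceed the 1 and 0 EB IgG reads found there. The other 3 sites, downstream of the gene, had 33, 43 and 18 ESC reads and 6, 9 and 1 EB reads.

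The sequence of the site upstream of Prdm14 is shown because it is the only ESC site within 10 kb of a start of a member, with 60 bases on each side of the summit, which is in capitals.

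Prdm14, chr1:13124451-13124571, plus strand: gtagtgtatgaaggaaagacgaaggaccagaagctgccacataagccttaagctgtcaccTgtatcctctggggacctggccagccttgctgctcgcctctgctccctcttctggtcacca

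Prdm14 was also the only gene with an EB-only site. It lay 12717 bp upstream of the start in an exon of Ncoa2 (chr1:13129616-13130146), between the ESC sites named above, and had a score of 51.3. It held 6 ESC and 11 EB RAD21 reads, with 8 ESC and 2 EB IgG reads, and no CTCF motif. Its EB to ESC ratio was the highest of all 41 sites, at a log2 ratio of 1.60, and ESC RAD21 reads were no more frequent than ESC IgG reads. This was the 1 EB site of 7 (14.3%) with at least 2-fold more EB reads, against 34.1% of all autosomal EB sites.

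Nr5a2 (chr1:138740161-138857004, minus strand) had the one site inside a gene body, in an intron (chr1:138752410-138753381). That site held 22 ESC and 6 EB RAD21 reads, with 1 ESC and 2 EB IgG reads, 2.07 times more in ESCs, and the interval of 0.81 to 6.24 includes equal levels. At both downstream sites the difference exceeded counting error. With 40 ESC and 5 EB RAD21 reads, and 6 and 4 IgG reads, the site 186473 bp downstream of the start was 4.52 times higher in ESCs (1.78 to 14.7). The last, 211157 bp downstream with a CTCF motif, held 27 and 2 RAD21 reads, with 1 and 0 IgG reads.

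Sall4 (chr2:168573832-168593443, minus strand) had 5 ESC-only sites and no EB site. Both its sites with 0 EB RAD21 reads were far from the gene. One lay 67070 bp upstream (chr2:168660070-168660807) and held 26 ESC RAD21 reads, with 4 ESC and 0 EB IgG reads. Against a floor of 3 EB reads it was 4.89-fold higher in ESCs, the exact interval of the ratio began at 3.70, and its log2 EB to ESC ratio was the lowest of the 34 member sites. The other, 88289 bp downstream in an intron of Atp9a, held 15 ESC RAD21 reads and was 2.82-fold higher against the same floor, with an exact interval that began at 2.02. The remaining sites differed less. At 75974 bp downstream 17 ESC and 9 EB RAD21 reads were counted, 1.07 times more in ESCs in RPM (0.45 to 2.71), and this site was ESC-only in the lists without a difference in reads beyond counting error. Closest to the body, 5540 bp past its end and 383 bp from the start of Atp9a, which encodes a phospholipid-transporting ATPase, a site held 21 and 5 RAD21 reads with 1 and 0 IgG reads, 2.37 times more in ESCs (0.87 to 8.05).

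Klf5 (chr14:99697910-99712624, plus strand) and Tcl1 (chr12:106454967-106460947, minus strand) had 2 ESC sites each, all ESC-only. At Klf5, 17 and 15 ESC RAD21 reads fell to 2 and 1 EB reads, and EB IgG reads were 4 and 0. At Tcl1, where both sites lay upstream and had a CTCF motif, 26 and 20 ESC reads compared with 4 and 2 EB reads, and EB IgG reads were 0 and 1. The summed EB to ESC ratios were 0.166 (0.0325 to 0.531) and 0.231 (0.0807 to 0.543).

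Klf2 (chr8:74842932-74845555, plus strand) had the ESC site of the highest score, 435.48, 57715 bp upstream (chr8:74784745-74786493). It was shared with EBs but differed in reads, with 55 ESC and 11 EB RAD21 reads, and 4 ESC and 1 EB IgG reads, 2.82 times more in ESCs (1.46 to 5.98). The second shared site, in an intron of Eps15l1, an endocytosis adaptor gene, held 52 and 12 RAD21 reads, 2.45 times more in ESCs (1.29 to 5.03). Overlap of lists and equality of reads were thus not the same at this gene. Of its 3 ESC-only sites, that 276 bp from the start of Ap1m1, a clathrin adaptor subunit gene, held 20 ESC and 6 EB RAD21 reads with 5 and 0 IgG reads, 1.88 times more in ESCs (0.73 to 5.72), and the other 2 held 20 and 21 ESC and 4 and 1 EB reads. Summed over the 5 sites the EB to ESC ratio was 0.359 (0.240 to 0.521). IgG reads at these sites were also fewer in EBs, with 18 ESC and 3 EB reads. Over the 8 ESC sites of Klf2 and Zfp42, both on chromosome 8, the ratio was 0.278 (0.194 to 0.389) for RAD21 reads. For IgG reads it was 0.352 (0.120 to 0.856) there. Whether RAD21 reads at the Klf2 sites differed more than IgG reads was not tested.

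Tcfcp2l1 (chr1:120524522-120581744, plus strand) and Tbx3 (chr5:120120678-120134733, plus strand) had the highest summed EB to ESC ratios of all members. Most of the EB RAD21 reads at their ESC sites lay at the shared sites, and their ESC-only sites had fewer EB than ESC reads in RPM. At Tcfcp2l1 the shared sites 131755 and 141104 bp downstream of the start held 45 and 22 ESC RAD21 reads and 20 and 17 EB reads, with at most 2 IgG reads in either cell type. The first of them had the highest score in EBs, 136.64 (chr1:120656101-120656727), and its ESC to EB ratio of 1.27 (0.73 to 2.27) does not differ from 1 beyond counting error. Its upstream sites, both in introns of Clasp1, were ESC-only with 18 ESC reads each and 2 and 4 EB reads.

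At Tbx3 the shared site 6541 bp past the end of the gene (chr5:120140778-120141906), 47 bp from the start of the non-coding transcript Gm16065, held 41 ESC and 18 EB RAD21 reads with 2 and 2 IgG reads, 1.29 times more in ESCs (0.72 to 2.38). The other, 107461 bp downstream of the start, held 27 and 18 reads and was 0.85 times as high in ESCs (0.45 to 1.63). Of the ESC-only sites of Tbx3, that 32642 bp downstream fell from 17 to 1 read, with 4 ESC and 2 EB IgG reads, and those 98827 bp upstream and 42406 bp downstream had 31 and 24 ESC and 6 and 7 EB reads. The summed EB to ESC ratios were 0.740 (0.506 to 1.07) at Tcfcp2l1 and 0.633 (0.449 to 0.880) at Tbx3, the highest of the 9. Compared pair by pair with exact intervals of the ratio between genes, unadjusted for the number of pairs, 15 of the 36 pairs differed beyond counting error, and 14 of these held Tcfcp2l1 or Tbx3. Among the 21 pairs of the other 7 genes the interval excluded 1 in 1 pair, Zfp42 against Klf2, at 0.342 (0.113 to 0.866).

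The windows around the genes had fewer EB reads also outside their sites. With each site and 1 kb on either side left out, the 9 windows held 13131 ESC and 4890 EB RAD21 reads, an EB to ESC ratio of 0.660 (0.638 to 0.682), and 10324 ESC and 4338 EB IgG reads, a ratio of 0.764 (0.737 to 0.792). Relative to this the ratio at the ESC sites was 0.571 for RAD21 reads (0.487 to 0.668) and 1.00 for IgG reads (0.679 to 1.45). The sites had been listed for high ESC RAD21 signal and the rest of the window had not, which lowers the relative ratio of RAD21 reads. No such relative ratio was computed for all ESC sites, so it only describes the members. By gene, the interval of the ratio at the sites relative to the rest of the window lay below 1 for Zfp42 (0.194, 0.0689 to 0.443), Klf5, Nr5a2 (0.319, 0.163 to 0.578), Prdm14 (0.433, 0.280 to 0.649), Tcl1 and Sall4. It included 1 for Klf2 (0.704, 0.465 to 1.04), Tbx3 (0.913, 0.637 to 1.29) and Tcfcp2l1 (1.10, 0.743 to 1.61). These were the genes with shared sites, so this split by gene repeats the one between the site lists. At Klf2 the IgG reads outside the sites fell about as much as the RAD21 reads, with ratios of 0.532 (0.469 to 0.601) and 0.509 (0.457 to 0.567). Zfp42 and Klf2 lie on chromosome 8, whose share of reads was 1.23 times higher in the ESC than in the EB IgG library and 1.24 times higher in the ESC RAD21 library. With reads scaled by chromosome, the median log2 EB to ESC ratio over the ESC sites of all members was -1.51, against -1.45 without this scaling. The pooled EB to ESC ratio was 0.382, against 0.377. The part of this imbalance in the differences at the 2 genes was not tested. Without the 2 genes 22 of 26 sites were ESC-only (84.6%, 65.1 to 95.6) at a pooled EB to ESC ratio of 0.413 (0.346 to 0.491).

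**Figure D4:**
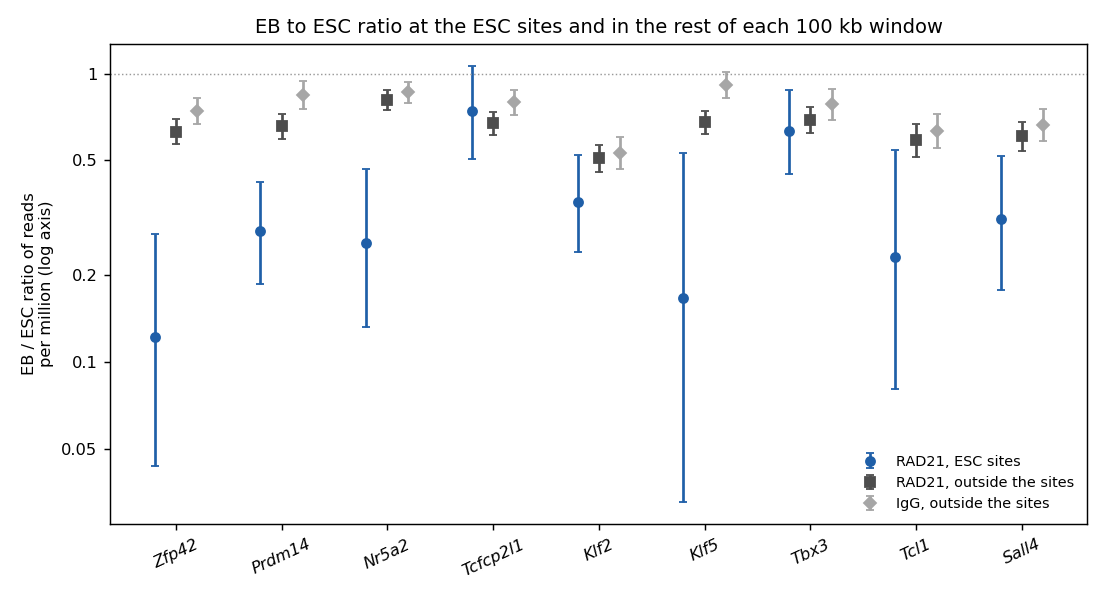
EB to ESC ratio of RPM on a log axis for each gene: RAD21 reads summed over its ESC sites (blue circles), RAD21 reads in the rest of the window of 100 kb beyond the gene body (dark squares) and IgG reads in the rest of the window (light diamonds), with exact 95% intervals for counting error. The blue circle lies below the dark square for 8 of the genes by value, with intervals apart from it for Zfp42, Prdm14, Nr5a2, Klf5 and Sall4, and at Tcfcp2l1 it lies above.

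Over whole windows, sites included, the median log2 EB to ESC ratio of RAD21 reads was -0.68 for the 9 genes, against -0.16 over all protein-coding genes, while that of IgG reads was -0.35 against -0.18. Klf2 was lowest, at -1.01, which is at the 0.191 percentile of all genes, and its IgG ratio of -0.89 was at the 0.317 percentile. Prdm14 and Klf5 stood apart in a different way. Their RAD21 ratios of -0.68 and -0.61 were at the 2.74 and 4.99 percentile, and their IgG ratios of -0.27 and -0.13 were at the 37.4 and 57.6 percentile. In ESCs the RAD21 to IgG log2 ratio of the window was at or above the 96.0 percentile of all genes for Tbx3, Klf2, Prdm14, Klf5 and Sall4, with values from 0.37 to 0.61, and in EBs the highest of the 9 was Tbx3 at the 95.5 percentile. Windows of neighbouring genes overlap, so these percentiles only describe where the members lie.

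At the gene starts RAD21 reads were few. Within 1 kb of the start the members had between 5 and 27 ESC and between 2 and 14 EB RAD21 reads. Their median log2 EB to ESC ratio for RAD21 was -0.17 (-1.02 to 0.60), against 0.12 over all protein-coding genes, and the interval includes 0. At least 2-fold fewer EB reads were found at 2 of 9 starts (22.2%, 2.81 to 60), against 11.2% of all starts, and 2-fold more at 0 of 9, against 13.1%.

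Among the gene starts, with further annotated starts of the same genes left aside, only Prdm14 differed in RAD21 reads between ESCs and EBs beyond counting error. It held 27 ESC and 2 EB RAD21 reads, with 3 ESC and 4 EB IgG reads, an EB to ESC ratio of 0.131 (0.0151 to 0.522), and in ESCs it was at the 96.8 percentile of all starts. Tcfcp2l1 followed with 17 ESC and 4 EB RAD21 reads and 7 and 3 IgG reads, a ratio of 0.417 (0.102 to 1.28). Tbx3 had 19 and 5 RAD21 reads with 3 and 1 IgG reads, Zfp42 11 and 4 with 9 and 5, and Tcl1 5 and 2 with 14 and 1. The IgG reads at the Tcl1 start gave an EB to ESC ratio of 0.130 (0.00307 to 0.854). A control library pair thus also differed beyond counting error at 1 start, by about as much as RAD21 at Prdm14.

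The remaining starts had more EB than ESC RAD21 RPM, none beyond counting error. Klf5 had 13 ESC and 14 EB RAD21 reads with 4 and 0 IgG reads, a ratio of 1.91 (0.832 to 4.41). At Sall4 19 and 14 RAD21 reads stood against 15 and 3 IgG reads, at Nr5a2 13 and 11 against 18 and 10, and at Klf2 6 and 5 against 3 and 2. By ESC RAD21 RPM the order was Prdm14 (1.97), Sall4 and Tbx3 (1.39 each), Tcfcp2l1 (1.24), Klf5 and Nr5a2 (0.948 each), Zfp42 (0.802), Klf2 (0.437) and Tcl1 (0.365), and in neither RAD21 library did any pair of neighbours in its order differ beyond counting error.

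**Figure D5:**
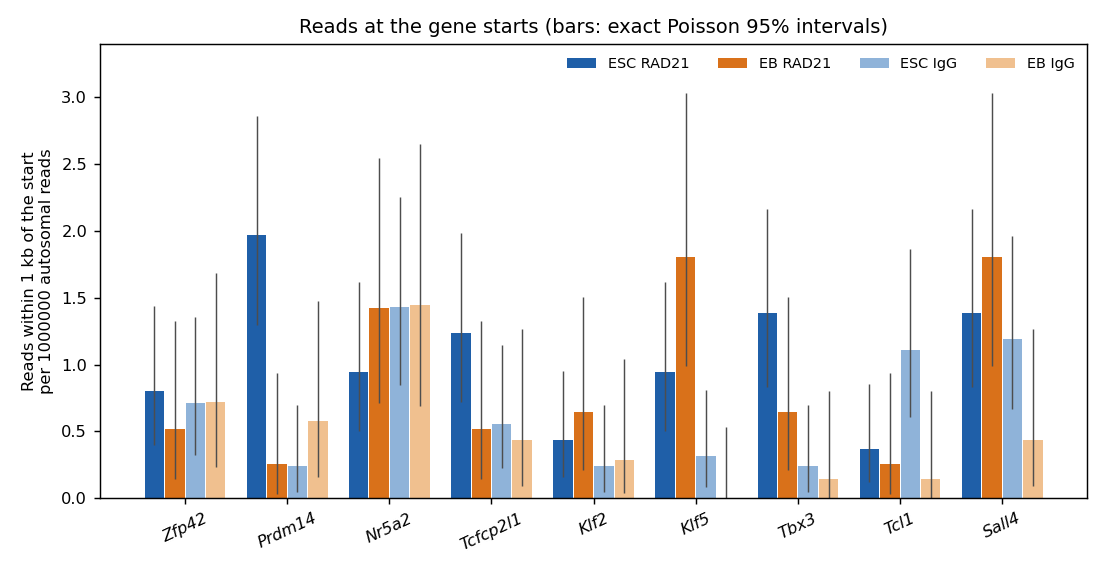
Reads per 1000000 autosomal reads (RPM) within 1 kb of each gene start in the 4 libraries, with exact Poisson 95% intervals for counting error as vertical lines. ESC RAD21 reads at Prdm14 (1.97) lie above its EB RAD21 (0.258) and both IgG values, and at the other starts the intervals of the ESC and EB RAD21 libraries overlap.

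RAD21 exceeded IgG at least 2-fold at 4 of 9 starts in ESCs (44.4%, 13.7 to 78.8), against 16.6% of all starts, and at 3 of 9 in EBs (33.3%, 7.49 to 70.1), against 25.6%. In ESCs these were Prdm14, Tbx3, Klf5 and Tcfcp2l1, and in EBs Klf5, Sall4 and Tbx3. These calls rest on ratios with 1 read added. The exact interval for counting error included 1 for Klf5 (0.923 to 12.6) and Tcfcp2l1 (0.879 to 6.36) in ESCs and for Tbx3 (0.501 to 212) in EBs. It lay above 1 for the other starts named. The median RAD21 to IgG ratio was 1.61 (0.68 to 4.59) in ESCs and 1.34 (0.75 to 3.36) in EBs, against 1.18 and 1.25 over all starts. Nr5a2 has a second annotated start 6797 bp further in, with 20 ESC and 3 EB RAD21 reads and 8 and 2 IgG reads. Sall4 has one 12000 bp further in, with 7 ESC and 1 EB RAD21 reads and 9 and 0 IgG reads. At both the direction by value was opposite to that at the gene start, on few EB reads. The log2 EB to ESC ratio was -1.57 at that of Nr5a2 and -1.17 at that of Sall4, and no interval was computed for these further starts. The other annotated starts of Sall4, 742 to 2697 bp further in, kept the direction, with log2 EB to ESC ratios from 0.13 to 1.07.

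Other genes of the pathway, listed by role but with earlier results of these data known, can be set beside the members. The core factor genes Pou5f1, Sox2, Nanog, Esrrb and Klf4 had 26 ESC sites in all, of which 19 were ESC-only (73.1%, 52.2 to 88.4) and 14 had at least 2-fold fewer EB reads, at a median log2 ratio of -1.04. Nanog held 11 of these sites, of which 5 were ESC-only. At Pou5f1 4 of 5 were ESC-only, and at Sox2, Esrrb and Klf4 all were. The LIF signalling genes Lifr, Il6st, Jak1, Stat3 and Socs3 had 22, of which 10 were ESC-only (45.5%, 24.4 to 67.8) and 8 were 2-fold lower in EBs, at a median of -0.48. The primed pluripotency genes Otx2, Pou3f1, Fgf5 and Zic2 had 4 ESC sites, of which 3 were ESC-only. At the starts 2 of the 5 core genes, 0 of the 5 LIF signalling genes and 1 of the 4 primed genes had at least 2-fold fewer EB reads, and none of the 14 had 2-fold more.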

How the data were processed

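The authors immunoprecipitated RAD21-GFP and IgG controls, sequenced them and ran MACS separately on ESCs and EBs against the IgG library of each; the aligner is not given in the sources used here. They deposited aligned reads on mm9 (1 count per line), peaks with a score and summits with a signal height, which was not used. The EB IgG reads end within a line on chromosome X and 7 lines of the ESC IgG reads are incomplete, so reads were compared on autosomes only. Members and lists were chosen with earlier results of these data known. Reads were moved to the fragment centre (206 bp in ESCs, 197 bp in EBs), counted, and scaled to 1000000 autosomal reads, and log2 ratios had 1 read added. Ratio and share intervals are exact (Clopper-Pearson, 95%), those of medians from order statistics. Sites were shared when overlapping by at least 1 bp. The CTCF matrix was learned on other chromosomes, with a threshold passed by 1e-05 of background positions. All 9 genes were described, with sites named when within 10 kb of the body, within 1 kb of a start, or highest or lowest in score or ratio, and the rest by counts and values. Alternatives concerned windows, scaling, pseudocount, GC content, distance, score and overlap. Scripts used Python 3.11 with numpy, pandas and SciPy and were tested on simulated data. One gene of the pathway lists is not reported here.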

Additional observations from a re-analysis of the deposited data

Results flagged for a closer look

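At some places RAD21 reads, scaled to 1000000 reads, exceeded IgG reads in one cell type and fell below them in the other. The difference between the cell types was not tested, and most of these ratios rest on fewer than 5 reads in EBs. At the Prdm14 start the RAD21 to IgG ratio was 8.27 in ESCs and 0.448 in EBs. At the Zfp42 start it was 1.12 and 0.716, and at the Tcl1 start the order was opposite, with 0.328 and 1.79. The Prdm14 EB-only site in the Ncoa2 exon had 0.689 in ESCs and 4.92 in EBs. Among ESC sites the ratios were 8.27 and 0.895 at Zfp42 55129 bp downstream, 3.91 and 0.448 at Tbx3 32642 bp downstream, 5.21 and 0.448 at Klf5 41489 bp downstream, 5.51 and 0.597 at Tcfcp2l1 98514 bp upstream, and 2.07 and 0.895 at Prdm14 42296 bp downstream. The ESC sites were listed for an ESC ratio above 1, so that only the EB value was free.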

How the results depend on the processing

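Of 75 values recomputed under alternatives for 14 results, 56 stayed within the interval or within 1.5 times of the value given. The median log2 ratio at ESC sites was -0.84 relative to the rest of each window, an alternative added after the data had been seen. At the EB sites the median of -0.10 turned to 0.060 with reads at their 5′ end, 0.24 within GC classes and 0.45 without chromosome 8. The pooled ratio at ESC sites was 0.289 with shared sites at a median of 0 and 0.316 within 50 kb. Within 50 kb 15 ESC, 3 EB and 13 ESC-only sites remained, and with a score of at least 100 the numbers were 17, 2, 13 and 0 EB-only. With at least 30 ESC reads 8 ESC-only sites remained, and requiring reciprocal overlap gave 3 EB-only sites. With reads within 500 bp 0 EB sites were 2-fold higher in EBs. The median log2 ratio at the starts turned to 0.17 within GC classes and 0.16 relative to IgG, and the EB RAD21 to IgG ratio there was 0.895 within 2 kb, so no direction at the starts as a group holds. The cause was not tested except where fewer sites entered. No paired analysis was possible because each group held 1 library.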
